A study of Mus musculus with 3 samples.

Results

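The genes described here are the 10 listed genes of MHC class II antigen presentation, out of 32285 genes in the count tables: H2-Aa, H2-Ab1, H2-Eb1, Cd74, H2-DMa, H2-DMb1, H2-DMb2, H2-Oa, H2-Ob and Ciita. All 10 were found by symbol in the gene lists of the 3 libraries. They were followed in immune cells of B16F10 melanomas, formed by a mouse cell line injected subcutaneously into C57BL/6 mice. Every mouse was given Pmel-1 cytotoxic T lymphocytes into a vein on day 9 after inoculation. Pmel-1 T cells recognise the melanocyte antigen gp100, and they had been activated in culture before transfer. CD45+ cells, that is leukocytes, were taken from tumours on day 3, day 7 and day 14 after transfer, and equal cell numbers of 3 mice were pooled into 1 library a day. All groups therefore carry the tumour and the transferred cells and tumours without transfer were not analysed here, so the time since transfer, the age of the tumour and the library cannot be told apart.

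MHC class II molecules are pairs of an alpha and a beta chain that show peptides from endosomes to CD4 T cells. In C57BL/6 mice the pair at the surface is I-A, made of H2-Aa and H2-Ab1; H2-Eb1 encodes the I-E beta chain, whose alpha partner this strain does not express. Cd74, the invariant chain, escorts new chains to the endosome and fills their groove, where cathepsin S and other proteases cut it down to a small fragment. H2-DM, made of H2-DMa with H2-DMb1 or H2-DMb2, removes that fragment and lets other peptides bind, and H2-DO, made of H2-Oa and H2-Ob, inhibits H2-DM. Ciita is the transactivator that switches the whole set on together with RFX, NF-Y and CREB proteins bound to a shared promoter module. Dendritic cells and B cells hold this programme constitutively, and macrophages acquire it on exposure to interferon gamma.

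The 8 H2 genes lie within 224 kb of chromosome 17 in mm10 (chr17:34092340-34316674), and the other 2 members lie elsewhere. The order along the chromosome is H2-Oa (chr17:34092340-34095234), H2-DMa (chr17:34119541-34139101), H2-DMb2 (chr17:34143307-34151555), H2-DMb1 (chr17:34153072-34160230), H2-Ob (chr17:34238903-34254414), H2-Ab1 (chr17:34257689-34269419), H2-Aa (chr17:34282744-34287823) and H2-Eb1 (chr17:34305867-34316674). H2-Aa is on the minus strand and the others are on the plus strand. Ciita lies at chr16:10480059-10528418. RefSeq promoter windows on GRCm38.p6, from 250 bases before a gene's start to 50 after it, were available for 7 of the 10 members. They are printed in part because the module shared by class II promoters can be read in them. The stretches below run 5′ to 3′ on the gene's strand. Capitals mark GNAAC, the left part of the X box bound by RFX, and TGATTGG, the Y box bound by NF-Y.
H2-Aa, chr17:34287867-34287918, minus strand: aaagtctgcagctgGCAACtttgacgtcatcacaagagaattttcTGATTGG
H2-Eb1, chr17:34305761-34305812, plus strand: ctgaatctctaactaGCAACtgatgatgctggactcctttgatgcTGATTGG
H2-Oa, chr17:34092289-34092340, plus strand: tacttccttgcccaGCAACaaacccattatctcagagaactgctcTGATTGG
H2-Ob, chr17:34238801-34238852, plus strand: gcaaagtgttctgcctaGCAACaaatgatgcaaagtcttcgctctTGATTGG
All 4 stretches end with TGATTGG, which begins 31 bases after the first base of GNAAC in H2-Aa and H2-Oa, 30 in H2-Eb1 and 28 in H2-Ob. Counting both strands, TGATTGG was found in the windows of 6 of the 7 members and in 7.82% of 32851 windows of all genes. GNAAC followed after 15 to 35 bases by TGATTGG was found in 5 of the 7 members and in 0.569% of all windows. Neither was found in the 2 windows of H2-DMa, which both lie inside the gene bounds given above.

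H2-DMb1 and H2-DMb2 are neighbouring copies of the beta chain of H2-DM, and their windows are printed as 30 bases because they differ in the GNAAC element.
H2-DMb1, chr17:34153083-34153112, plus strand: atgaggtttacctaGTAACtgatgatgcta
H2-DMb2, chr17:34145112-34145141, plus strand: atgaggtttacctattaaccgatgatgcta
Counted from 1 at the 5′ end of the H2-DMb1 stretch, the differences are G15T and T20C, with the base of H2-DMb1 first. The first of them removes GNAAC from the printed H2-DMb2 stretch, while TGATTGG was found in both windows. These letters show what the windows hold, and binding was not measured. Both stretches lie before the RefSeq start but inside the gene bounds given above, which are from another annotation (GENCODE). Whether they act as promoters here was not tested. The transcripts of the 2 genes were 94.4% identical over 1255 aligned bases. Near the 3′ end, where the kit reads, only 232 of the last 400 bases of each were aligned, with 87.5% identity. How the counting split similar reads between them is not given in the sources used here, so their separate values are uncertain to that extent.

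The day 3, day 7 and day 14 libraries held 3656, 3038 and 3549 barcodes with 33096709, 29547433 and 35742070 UMIs (unique molecular identifiers, which count captured RNA molecules). Barcodes with at least 1500 UMIs, 2775, 2600 and 2902 of them, were sorted into classes by a few genes each, since no cell annotation was used. The cDC1-like class needed at least 2 UMIs of Xcr1 and Clec9a together, the cDC2-like class 2 of Cd209a and 1 of Flt3, and the migratory DC-like class 2 of Fscn1 and 1 of Ccr7. Siglech (2 UMIs) set the pDC-like (plasmacytoid) class and Cd79a (2 UMIs) the B-like class. Macrophages were taken as Arg1-high (5 UMIs of Arg1) and Pf4-high (5 of Pf4 and 10 of C1qa). Barcodes with 3 UMIs each of Ly6c2 and Chil3, chosen as monocytes, are called by those genes here because only 2 of 6 other monocyte markers were highest in them. In the other 7 classes most markers outside the gate were highest in their own class: 4 of 6 in the cDC1-like and cDC2-like classes, 5 of 6 in Pf4-high macrophages and all 6 or 7 in the rest. The 8 gates took 1037, 673 and 1038 barcodes, of which 89, 47 and 156 passed several gates, mostly Arg1-high with Pf4-high (39, 13 and 71) or with the Ly6c2+ Chil3+ gate (31, 27 and 68). Barcode sequences found in more than 1 library made up 4.97%, 6.92% and 3.00% of barcodes with at least 1500 UMIs, and they included 23 of the 49 cDC1-like barcodes of day 7 and 18 of the 64 Pf4-high barcodes of day 3. With 1 library a day there is no test between days. Intervals are exact 95% Poisson (levels), binomial (shares) or conditional (ratios) limits of counting error alone, and they do not cover differences between mice or libraries.

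The 4 genes of the class II chains and the invariant chain, H2-Aa, H2-Ab1, H2-Eb1 and Cd74, are called the core genes. Their summed level was highest in the cDC2-like and cDC1-like classes. In counts scaled to 1000000 UMIs of the class (CPM), the core sum was 41612, 38445 and 37159 in the cDC2-like class on day 3, day 7 and day 14. It was 35586, 42882 and 36224 in the cDC1-like class, and the values of these 2 classes overlapped. The B-like class followed with 28946, 34419 and 16982, and the migratory DC-like class, dendritic cells with the CCR7 programme of lymph node homing, held 26737, 22717 and 20262. Arg1-high macrophages held 12414, 14234 and 10705 CPM. Levels in the pDC-like class were 12228, 10991 and 8987, in Pf4-high macrophages 5680, 16306 and 9402, and in Ly6c2+ Chil3+ barcodes 7499, 8329 and 9049. In the order of medians, neighbouring classes were clear of each other over the 3 libraries only between cDC1-like and B-like, between migratory DC-like and Arg1-high, and, below these classes, between T-like and NK-like barcodes.

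**Figure D1:**
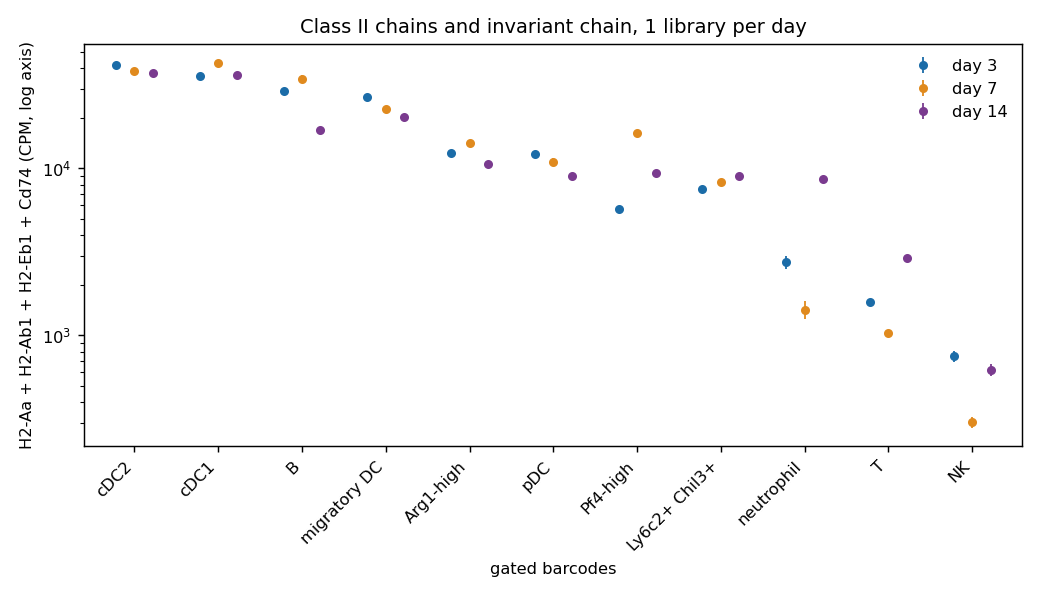
Summed CPM of H2-Aa, H2-Ab1, H2-Eb1 and Cd74 (log axis) in 11 gated classes of barcodes, 1 point per library (day 3, day 7, day 14) with its exact 95% Poisson interval, which covers counting error only. The 3 points of the cDC2-like and cDC1-like classes lie between 35586 and 42882 CPM, while those of the Pf4-high class spread from 5680 to 16306 CPM.

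Barcodes that should hold little class II RNA gave the background. T-like barcodes (Cd3e and Trbc2) had core sums of 1585, 1040 and 2914 CPM, and NK-like barcodes (Ncr1 and Klrb1c without Cd3e) had 751, 301 and 622. Neutrophil-like barcodes (S100a8 and Csf3r) had 2738, 1423 and 8663, of which a single barcode in each library held 62.1%, 90.1% and 94.4%. Without that barcode the neutrophil-like sums were 1150, 151 and 566 CPM. The T-like sums without barcodes that also passed one of the 8 gates were 790, 778 and 1805. The core level in each of the 8 classes was above the T-like and NK-like levels of the same library, with Pf4-high macrophages of day 3 the lowest of the 24 values.

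Within a class, single barcodes were far from uniform. In the B-like class 98.8%, 100% and 88.7% of barcodes had at least 10000 CPM of the core genes, and the medians of single barcodes were 32196, 41538 and 26464 CPM. The medians were 34929, 44184 and 36684 in the cDC1-like class and 35431, 40337 and 35832 in the cDC2-like class. In both classes of conventional dendritic cells the median barcode was thus near the level of the class sum. Ly6c2+ Chil3+ barcodes had medians of 2252, 826 and 1762 CPM, with an interquartile range from 274 to 9007 on day 3, from 168 to 8305 on day 7 and from 223 to 11925 on day 14. Their sum thus combined barcodes with little class II RNA and barcodes with much of it: 138 of 607, 92 of 398 and 104 of 375 of them (22.7%, 23.1% and 27.7%) had at least 10000 CPM. Arg1-high barcodes had medians of 7156, 8007 and 6975 CPM. Pf4-high barcodes had medians of 2135, 13540 and 6421, and 25%, 63.0% and 43.0% of them had at least 10000 CPM. Of T-like barcodes 2.97%, 1.53% and 5.71% reached that level.

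**Figure D2:**
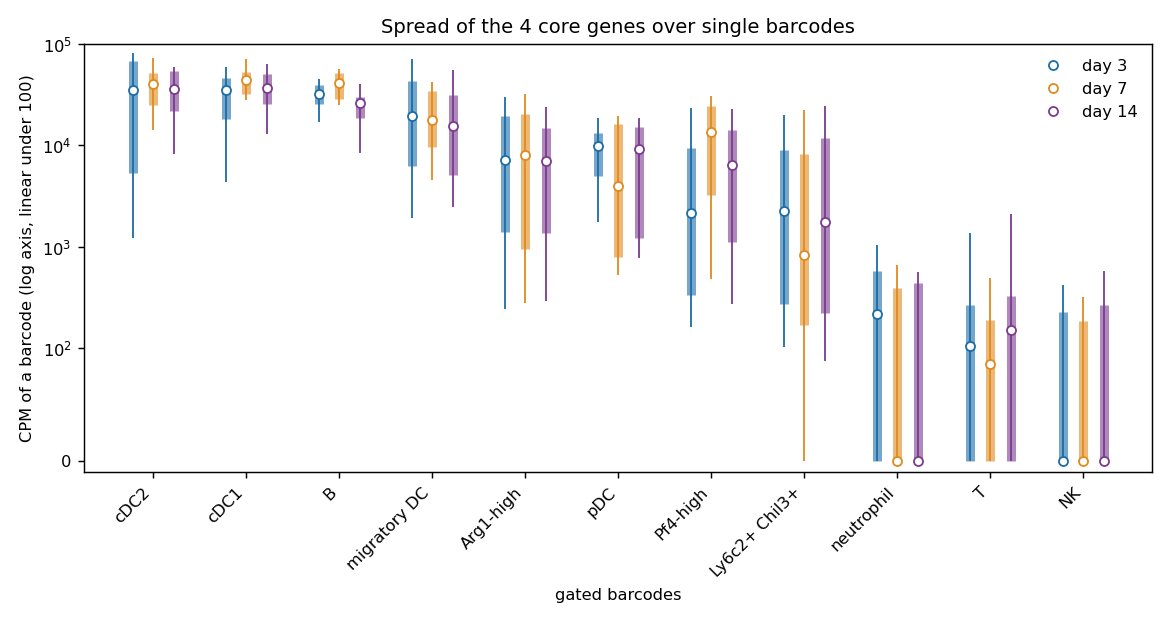
CPM of the core genes in single barcodes, by class and day: open point, median; thick line, interquartile range; thin line, 10th to 90th percentile (log axis, linear under 100 CPM). In Ly6c2+ Chil3+ barcodes the thick line runs from 274 to 9007 CPM on day 3, while medians of T-like barcodes are 106, 86.3 and 150 CPM.

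In the pDC-like class the core sum rested largely on single barcodes on day 3 and day 7. One barcode held 34.6% of the core UMIs on day 3 and another held 60.0% on day 7, when the class had 10 barcodes. The day 3 barcode also passed the cDC1-like gate, with 18 UMIs of Xcr1 and 13 of Clec9a. Without the top barcode of each library the core sum of the pDC-like class was 8960, 5177 and 8409 CPM.

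The members of the core set did not keep one ratio in all classes. The migratory DC-like class had less H2-Ab1 for its H2-Aa than the conventional dendritic classes. H2-Aa was at 6000, 6395 and 5849 CPM there, beside 5787, 7133 and 3288 in B-like barcodes. H2-Ab1 was at 3309, 2405 and 2075 CPM, while the cDC2-like class held 7590, 7365 and 7350. H2-Ab1 thus made up 35.5%, 27.3% and 26.2% of the UMIs of the pair in migratory DC-like barcodes, and 46.6%, 51.8% and 50.6% in cDC1-like barcodes. The same was seen barcode by barcode: H2-Aa exceeded H2-Ab1 in 38 migratory DC-like barcodes and the reverse held in 0 on day 3, in 18 against 1 on day 7 and in 49 against 1 on day 14. In the pDC-like class the shares were 39.0%, 52.0% and 40.5%, and 36.0%, 36.2% and 39.6% without the top barcode. Shares in the cDC2-like class were 46.7%, 48.2% and 47.6%, and in the B-like class 40.3%, 42.5% and 43.9%. The 3′ kit counts each captured molecule once whatever its length, but a share between 2 genes still carries how well each is captured, so the difference between classes is what is read here. H2-Eb1, the I-E beta chain, followed H2-Aa, with 4171, 4020 and 3824 CPM in migratory DC-like barcodes and 3665, 4487 and 2371 in B-like barcodes. Cd74 had the highest level of all 10 members in all 8 classes, from 2781 CPM in Pf4-high macrophages of day 3 to 19112 CPM in cDC2-like barcodes of day 3. In migratory DC-like barcodes Cd74 was at 13257, 9897 and 8515 CPM, or 68.8%, 60.7% and 59.3% of the UMIs of Cd74 and H2-Aa together.

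**Figure D3:**
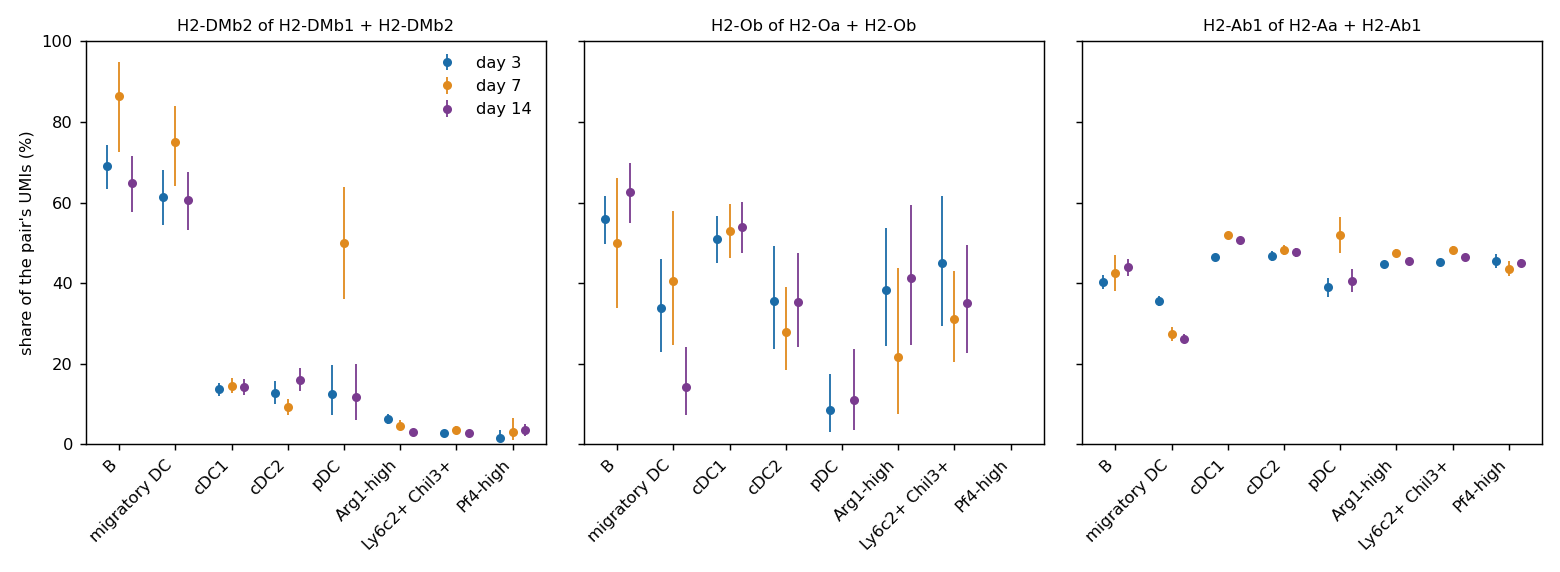
Share of the UMIs of a pair of genes that came from the second gene (percent), for H2-DMb1 and H2-DMb2, H2-Oa and H2-Ob, and H2-Aa and H2-Ab1, by class and day, with exact binomial 95% intervals; pairs with fewer than 20 UMIs in a library are not drawn. H2-DMb2 holds 60.5% or more of its pair in B-like and migratory DC-like barcodes, and 16% or less in the cDC1-like and cDC2-like classes.

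H2-DM edits the peptides that class II chains carry, and its alpha chain H2-DMa was highest in conventional dendritic cells. H2-DMa was at 1026, 998 and 1047 CPM in cDC2-like and at 951, 928 and 982 CPM in cDC1-like barcodes, so these classes did not overlap, although they lay close together. B-like barcodes held 640, 804 and 413 CPM. Ly6c2+ Chil3+ barcodes held 563, 441 and 428 CPM, above the 329, 405 and 267 of Arg1-high macrophages in every library, which is the opposite order to the core sum. Migratory DC-like barcodes held 310, 260 and 272 CPM, below all classes but the Pf4-high macrophages (189, 375 and 251) in the order of medians. T-like barcodes held 86.2, 52.2 and 102 CPM.

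The UMIs of the H2-DM beta chain came from different genes in different classes. H2-DMb1 was at 1318, 1786 and 1163 CPM in cDC2-like and 972, 1138 and 938 CPM in cDC1-like barcodes. It was at 264, 156 and 170 CPM in B-like and at 144, 61.3 and 104 CPM in migratory DC-like barcodes, below Ly6c2+ Chil3+ barcodes (475, 441 and 476). Both B-like and migratory DC-like classes were thus at the low end for H2-DMb1. H2-DMb2 had another order: 588, 986 and 313 CPM in B-like barcodes, ahead of migratory DC-like (230, 184 and 160), cDC2-like (191, 181 and 222) and cDC1-like barcodes (153, 193 and 155). In macrophages and Ly6c2+ Chil3+ barcodes H2-DMb2 stayed between 3.05 and 23.5 CPM, beside 7.45 to 15.8 CPM in T-like barcodes. H2-DMb2 therefore made up 69.0%, 86.4% and 64.8% of the beta chain UMIs in B-like barcodes and 61.4%, 75% and 60.5% in migratory DC-like barcodes, but 13.6%, 14.5% and 14.2% in cDC1-like and 12.7%, 9.19% and 16% in cDC2-like barcodes. The Ly6c2+ Chil3+ share was 2.86%, 3.66% and 2.73%. Among single B-like barcodes, H2-DMb2 exceeded H2-DMb1 in 55 and the reverse held in 8 on day 3, in 6 against 0 on day 7 and in 39 against 5 on day 14. The pDC-like share of 50% on day 7 rested on 1 barcode, which held 26 of 27 H2-DMb2 UMIs, and it was 4.0% without that barcode.

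H2-DO, the inhibitor of H2-DM, was found mainly in B-like barcodes. H2-Oa was at 382, 519 and 160 CPM there, and H2-Ob at 482, 519 and 268 CPM, which was above every other class in every library for both genes. The cDC1-like class held both chains at like numbers of UMIs: 90.9, 87.9 and 101 CPM of H2-Oa and 94.0, 98.7 and 118 CPM of H2-Ob. The cDC2-like class held as much H2-Oa (101, 127 and 95.5 CPM) with less H2-Ob (55.8, 49.1 and 51.9 CPM). In the pDC-like class H2-Oa was at 158, 92.3 and 122 CPM but H2-Ob only at 14.5, 15.4 and 14.8, or 6, 2 and 5 UMIs in all. H2-Ob thus made up 50.8%, 52.9% and 53.9% of the pair in cDC1-like, 35.6%, 27.8% and 35.2% in cDC2-like and 8.45%, 14.3% and 10.9% in pDC-like barcodes. Without the top barcode of the pair the pDC-like shares were 1.75%, 16.7% and 12.2%. Migratory DC-like barcodes held 83.7, 67.4 and 94.4 CPM of H2-Oa and 42.8, 46.0 and 15.7 of H2-Ob. In Ly6c2+ Chil3+, Arg1-high and Pf4-high barcodes H2-Oa was at 10.7 CPM or less, under the NK-like levels of 16.5, 18.2 and 16.8 on every day, and H2-Ob was at 5.03 CPM or less beside 2.68 to 6.24 in T-like barcodes. In Pf4-high macrophages of day 3, H2-Oa had 0 UMIs, which was read against a floor of 1.83 CPM (3 UMIs of the class total). These 3 classes thus held class II chains with H2-DO RNA no higher than the range seen in T-like and NK-like barcodes.

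**Figure D4:**
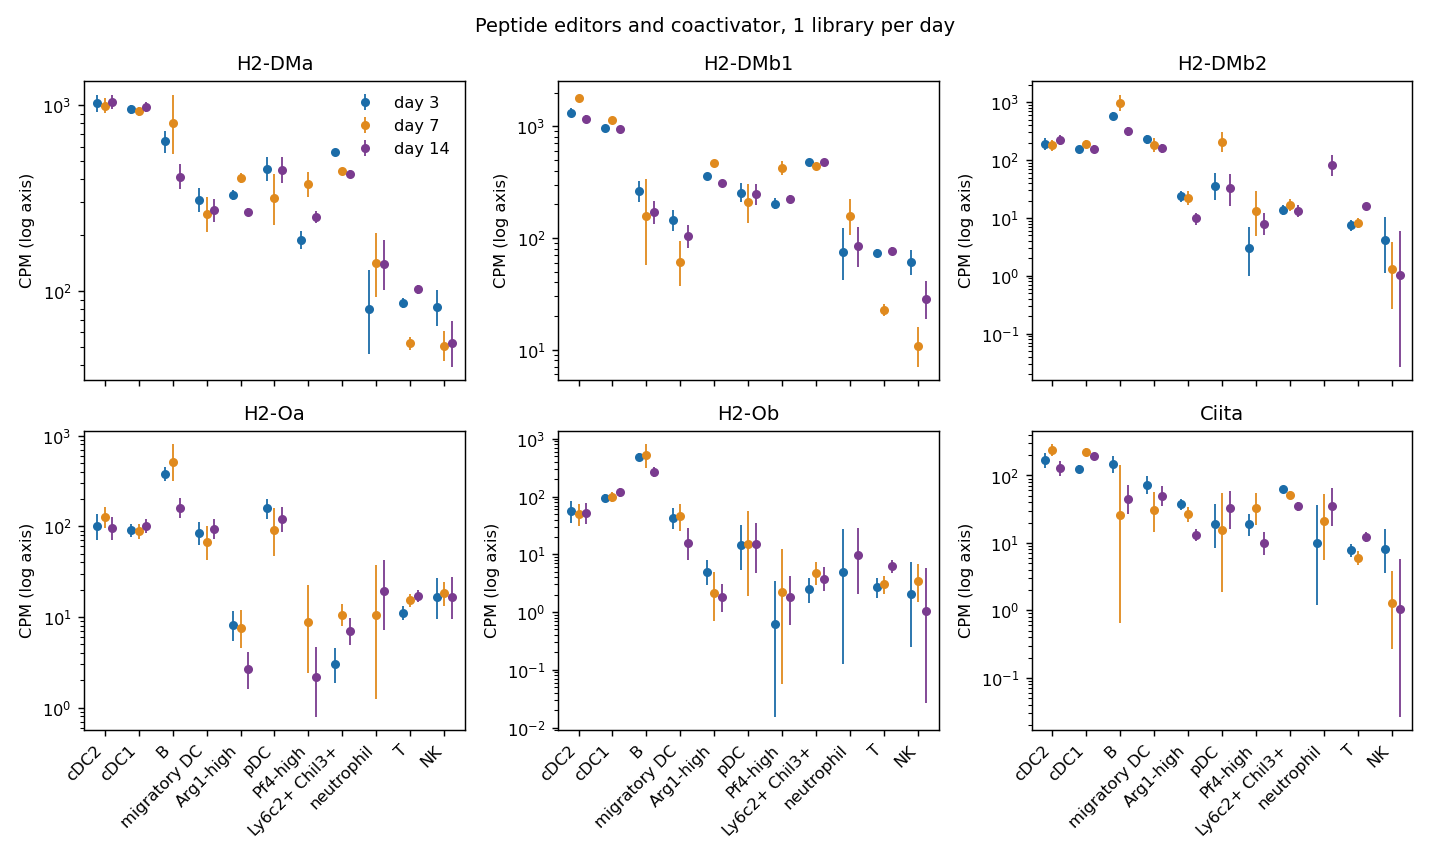
CPM (log axis, values of 0 not drawn) of the 3 H2-DM genes, the 2 H2-DO genes and Ciita by class and day, with exact 95% Poisson intervals of counting error. H2-DMb2, H2-Oa and H2-Ob are highest in B-like barcodes (160 to 986 CPM), H2-DMa and H2-DMb1 in cDC2-like barcodes (998 to 1786 CPM).

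Ciita, the transactivator, had its highest medians over the 3 libraries in the conventional dendritic classes. It was at 126, 223 and 191 CPM in cDC1-like and at 170.0, 239 and 129 CPM in cDC2-like barcodes, which overlapped. Of cDC1-like barcodes 80.2%, 89.8% and 80.8% had a UMI of Ciita, beside 6.86%, 3.76% and 5.27% of T-like barcodes. These shares are not at equal depth: the median was 16582, 23550 and 21974 UMIs in cDC1-like and 12544, 10436 and 9111 in T-like barcodes. The next medians of Ciita were in Ly6c2+ Chil3+ barcodes with 62.8, 52.0 and 35.1 CPM and in migratory DC-like barcodes with 73.1, 30.6 and 50.05 CPM. Arg1-high macrophages held 37.2, 26.6 and 13.1 CPM, and Pf4-high macrophages 18.9, 33.3 and 10.1 CPM. B-like barcodes held 146, 25.9 and 45.1 CPM, from 48 UMIs, 1 UMI and 18 UMIs, so that on day 3 they were above the cDC1-like class. The pDC-like class held 19.4, 15.4 and 32.6 CPM. A class with many class II UMIs was not always one with much Ciita: on day 14 B-like barcodes had 16982 CPM of the core genes with 45.1 CPM of Ciita, and Ly6c2+ Chil3+ barcodes had 9049 with 35.1. This B-like value of Ciita is from 18 UMIs. It was 58.7 CPM without 3 barcodes with at least 10 UMIs of Jchain, described below.

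Pairs of classes were compared by whether their 3 values lay apart, which is a description with 3 libraries and no test, and the share of all measured genes that did the same is given as the background. Migratory DC-like barcodes were below cDC2-like barcodes for 9 of 10 members, where 25.2% of genes were; H2-DMb2 was the exception. Arg1-high macrophages were below cDC2-like barcodes for 10 of 10 members, with a background of 19.7%. The pDC-like class was below the cDC2-like class for 8 of 10 members (background 16.7%), H2-DMb2 and H2-Oa being the others. B-like barcodes were above cDC2-like barcodes for H2-DMb2, H2-Oa and H2-Ob (background 11.2%) and below them for H2-Aa, H2-Ab1, H2-Eb1, H2-DMa and H2-DMb1 (background 24.7%). Against migratory DC-like barcodes, B-like barcodes were higher for the 5 genes of H2-DM and H2-DO (background 14.8%) and lower for 0 members (background 21.8%). Between the conventional classes, cDC1-like barcodes were above cDC2-like barcodes for H2-Ob alone (background 12.2%) and below them for H2-DMa and H2-DMb1 (background 10.5%). Arg1-high macrophages were above Ly6c2+ Chil3+ barcodes for the 4 core genes (background 12.3%) and below them for H2-DMa (background 17.2%). Between Pf4-high and Arg1-high macrophages 0 members lay apart in either direction, where 20% of genes were higher and 7.31% lower in the Pf4-high class.

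Between days, a member was called higher or lower in a class when it differed by at least 1.5-fold with a counting interval clear of 1 and at least 20 UMIs over both libraries. This is a rule of size between single libraries and not a test of the days. Of 80 pairs of member and class, 75 had enough UMIs between day 7 and day 3, and 10 were higher on day 7 (background 4.96% of all pairs of gene and class) and 2 lower (background 8.74%). Between day 14 and day 7, 1 of 74 was higher (background 5.47%) and 23 were lower (background 5.55%). Between day 14 and day 3, 7 of 76 were higher (background 4.16%) and 19 lower (background 8.29%). The median log2 ratio of the members with enough UMIs was 0.11, -0.32 and -0.17 in these comparisons, beside -0.07, 0.01 and -0.07 over all such pairs of gene and class. The calls were concentrated in a few classes: 8 of the 23 lower calls of day 14 against day 7 were in B-like barcodes and 6 in Pf4-high macrophages. The cDC1-like class had 0 of those 23 and the cDC2-like class had 2.

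**Figure D5:**
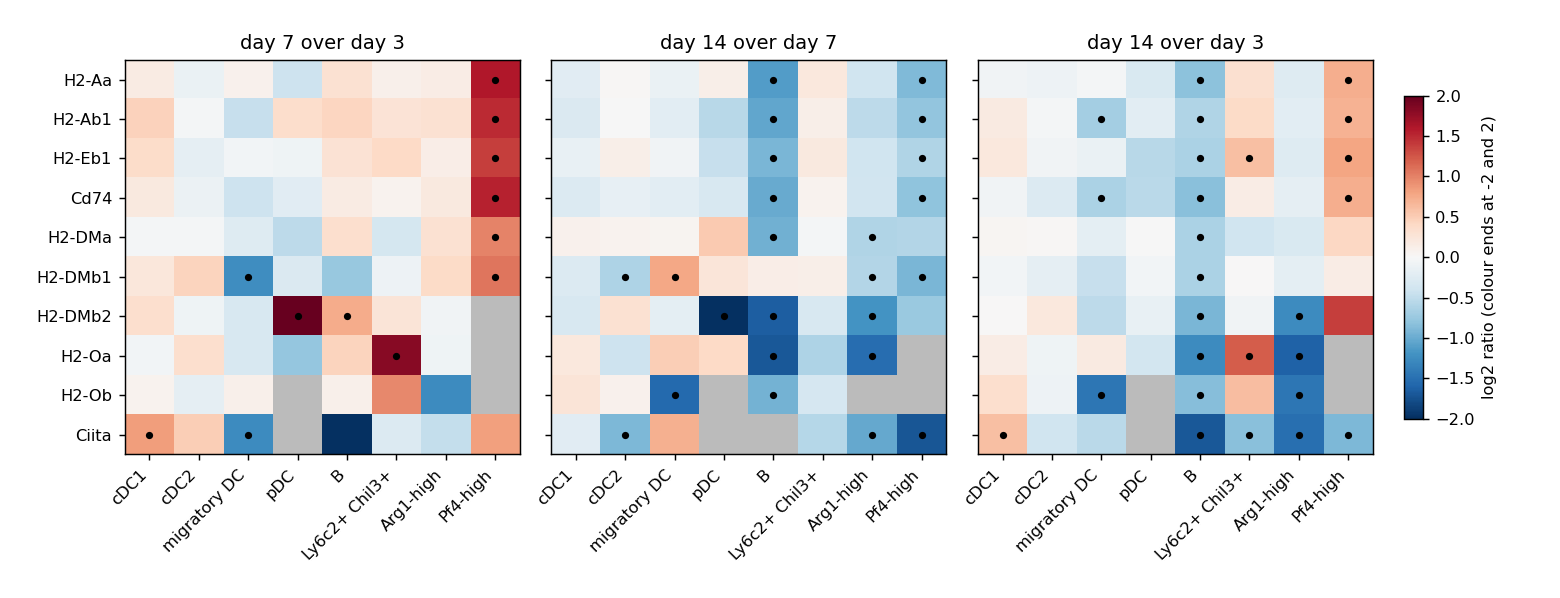
log2 ratio of CPM between days for each member (rows) in each class (columns), for day 7 over day 3, day 14 over day 7 and day 14 over day 3; black dots mark pairs past the size rule and grey cells have fewer than 20 UMIs over both libraries. Dots cluster in the Pf4-high column in the first panel (6 higher) and in the B column in the second and the third (8 and 10 lower).

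Pf4-high macrophages held the core genes at their highest level on day 7. H2-Aa was at 1166, 3528 and 1920 CPM, H2-Ab1 at 974, 2727 and 1573 CPM, H2-Eb1 at 759, 1986 and 1308 CPM and Cd74 at 2781, 8065 and 4602 CPM. Day 7 was the highest and day 3 the lowest for all 4 genes. The core sum was 2.87-fold higher on day 7 than on day 3 (2.78 to 2.96), and 1.73-fold lower on day 14 than on day 7 (1.69 to 1.78). H2-DMa (189, 375 and 251 CPM) and H2-DMb1 (202, 424 and 225 CPM) were also highest on day 7. In all, 6 of 7 members with enough UMIs were higher on day 7 than on day 3 (background 5.72%), and 6 of 8 were lower on day 14 than on day 7 (background 6.85%). The median log2 ratio of the members with enough UMIs was 1.39 in the first of these comparisons, beside -0.14 over all genes. Of the 6 higher calls, H2-DMa did not pass without barcodes found in several libraries, H2-DMb1 did not without barcodes passing several gates, and neither did when thinned. On day 14 against day 3 the 4 core genes were higher (background 2.47%) and Ciita was lower (background 7.02%). The class had 64, 27 and 121 barcodes, and 42, 14 and 74 of them passed another gate. Without barcodes found in several libraries the core sums were 8935, 15711 and 9999 CPM, so that day 7 stayed above day 3 but day 14 and day 3 differed by 0.16 on the log2 scale and the 4 core genes did not pass the rule, nor did they as means over barcodes. Without barcodes passing several gates the sums were 4988, 18221 and 7845. In the same barcodes the summed level of 8 monocyte markers was 1816, 2481 and 1389 CPM and that of 8 T cell markers 1331, 1620 and 659 CPM, and their part in the result was not tested. The summed level was 655, 874 and 759 CPM for 8 cDC2 markers, none of them at 0, and 524, 395 and 339 CPM for 8 cDC1 markers, of which Itgae and Snx22 were at 0. The top barcode of day 7, with 12.3% of the core UMIs of the class, also passed the cDC2-like gate with 51 UMIs of Cd209a. Their part in the result was not tested either.

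B-like barcodes held less class II RNA on day 14 than on day 3 in the sum over the class. H2-Ab1 was at 3898, 5265 and 2571 CPM and Cd74 at 15596, 17534 and 8753 CPM, with 80, 6 and 53 barcodes. The core sum was 1.70-fold lower on day 14 than on day 3 (1.65 to 1.76), and all 10 members were lower (background 15.1%), with a median log2 ratio of -0.82 beside -0.27 over all genes. Against day 7, 8 of 9 were lower (background 5.97%), with only 6 barcodes on day 7, and 3 of these 8 calls still passed with TMM scaling (H2-Aa, H2-DMb2 and H2-Oa). Between day 7 and day 3 H2-DMb2 was higher (background 2.6%). On day 14, 3 barcodes with at least 10 UMIs of Jchain, a gene of antibody-secreting cells, held 23.2% of the UMIs of the class. These 3 barcodes had 21.6 CPM of H2-Aa and 3953 CPM of Cd74, whereas the other 50 had 4275 CPM of H2-Aa, 3292 of H2-Ab1, 3070 of H2-Eb1 and 10203 of Cd74. Igkc, an antibody light chain, was at 88624 CPM in the whole class on day 14 and at 10016 CPM on day 3. No Jchain UMI was found in the class on day 3 or day 7. Without these 3 barcodes the log2 ratio of the core sum between day 14 and day 3 was -0.47, short of the size rule. It was -0.77 with them and -0.33 as a mean over barcodes. Of the 10 member calls, 3 still passed without these barcodes (Cd74, H2-Oa and Ciita), 5 with TMM scaling and 1 as a mean over barcodes (Ciita). The summed level of 8 T cell markers in the class was 51.5, 156 and 930 CPM and that of 8 Arg1-high macrophage markers 573, 77.8 and 1531 CPM, and their part in the result was not tested.

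Migratory DC-like barcodes held less of 3 members on day 14 than on day 3 (background 5.35%). H2-Ab1 was 1.59-fold lower (1.49 to 1.71), Cd74 1.56-fold lower (1.5 to 1.61) and H2-Ob 2.72-fold lower (1.28 to 6.15), the last from 24 UMIs and 11 UMIs. H2-Aa, at 6000 and 5849 CPM, did not share this difference. Cd74 passed the rule under 8 of 12 alternative settings, and H2-Ab1 under 11, not without the top barcode. Between day 7 and day 3, H2-DMb1 and Ciita were lower (background 7.2%), by 2.36-fold (1.43 to 4.06) and 2.38-fold (1.17 to 5.34), with 20 UMIs and 10 UMIs on day 7. Ciita did not pass without barcodes that also held T cell or Cd79a UMIs. Day 14 against day 7 had H2-DMb1 higher (background 6.86%) and H2-Ob lower (background 4.58%). Each of these calls passed under 8 of 12 alternative settings, and H2-Ob rested on 15 UMIs on day 7 and 11 UMIs on day 14.

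In the class sums of Ly6c2+ Chil3+ barcodes, H2-Eb1 was higher and Ciita lower on day 14 than on day 3, while the median barcode held 2252 CPM of the core genes on day 3 and 1762 on day 14. H2-Eb1 was at 746, 984 and 1126 CPM, 1.51-fold higher on day 14 than on day 3 (1.45 to 1.57), a call that did not pass with TMM scaling, as a mean over barcodes, after thinning or without barcodes that also held T cell or Cd79a UMIs. The other core genes differed by less than 1.5-fold in the sums, among them H2-Aa with 1502, 1612 and 1869 CPM. Ciita was 1.79-fold lower on day 14 than on day 3 (1.5 to 2.14), and the share of barcodes with a UMI of it was 38.4%, 26.6% and 24%. Median depth was 10302, 10584 and 11507 UMIs on the 3 days, and after thinning each barcode to 1500 UMIs Ciita was still lower. H2-Eb1 and H2-Oa were thus the 2 of 10 members that were higher on day 14 than on day 3 (background 5.56%) and Ciita the 1 that was lower (background 8.68%). H2-Oa rested on 22 and 35 UMIs. On day 7 H2-Oa was also above day 3 (background 5.64%), with 49 UMIs in 2.01% of barcodes, and it was at 0.964 CPM there without barcodes found in several libraries.

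In Arg1-high macrophages Ciita was also lower on day 14, 2.84-fold against day 3 (2.17 to 3.72) and 2.03-fold against day 7 (1.46 to 2.82). The share of barcodes with a UMI of Ciita was 30.8%, 17.8% and 11.9%. The core sum was 1.16-fold lower on day 14 than on day 3 (1.15 to 1.17). H2-DMb2, H2-Oa, H2-Ob and Ciita were the 4 of 10 members that were lower on day 14 than on day 3 (background 10.6%), the first 3 of them at 23.5 CPM or less and short of the rule without barcodes found in several libraries. Against day 7, H2-DMa, H2-DMb1, H2-DMb2, H2-Oa and Ciita were lower, 5 of 9 with enough UMIs (background 6.76%), and of these 5 Ciita was the 1 that still passed without barcodes found in several libraries or as a mean over barcodes. Day 3 Arg1-high barcodes also held 4 erythroid genes at a summed level of 1290 CPM, beside 0.4 CPM on the other days, and its part in the result was not tested.

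The conventional dendritic classes had 4 calls in all between days, and 3 of them were of Ciita. In cDC1-like barcodes Ciita was 1.78-fold higher on day 7 than on day 3 (1.47 to 2.14), 1 of 10 members (background 4.3%), and 1.52-fold higher on day 14 than on day 3 (1.25 to 1.85; background 4.55%). The other 9 members were within 1.5-fold in all 3 comparisons. In cDC2-like barcodes Ciita was 1.86-fold lower on day 14 than on day 7 (1.34 to 2.58) and H2-DMb1 1.54-fold lower, 2 of 10 members (background 5.99%). Of 12 alternative settings, the first passed the rule under 10 and the second under 5, and the day 14 call of Ciita in cDC1-like barcodes under 10, not without the top barcode. The core sum of the cDC2-like class depended on its gate. Its log2 ratio between day 14 and day 3 was -0.16. The alternatives ran from -1.57 with doubled gate thresholds to 0.14 without barcodes found in several libraries. In the pDC-like class H2-DMb2 was called higher on day 7 than on day 3 (background 3.73%) and lower on day 14 than on day 7 (background 4.07%), both through the single barcode described above.

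The 32 other genes of the pathway comprise proteases and partners of the endosome, transcription factors and receptors upstream of Ciita, genes of class II turnover and costimulation. The alternative settings were run on the members and the core sum and not on these 32 genes. Irf1, an interferon-induced activator of Ciita, was lower on day 14 than on day 3 in all 8 classes. It was at 261 CPM on day 3 and 91.0 CPM on day 14 in cDC1-like barcodes, at 591 and 179 CPM in Ly6c2+ Chil3+ barcodes and at 391 and 87.5 CPM in Arg1-high macrophages. The ratios of day 3 to day 14 ran from 1.67 in pDC-like to 5.18 in B-like barcodes. Over the 8 classes, 23 to 32 of the 32 genes had enough UMIs between day 14 and day 3, of which 0 to 4 were higher and 4 to 9 lower, where 4.16% and 8.29% of all pairs of gene and class were. In Arg1-high macrophages 0 of 32 were higher (background 1.98%) and 7 lower (background 10.6%) on day 14 than on day 3, among them Irf4 and Irf8, transcription factors of myeloid and B cells. In Ly6c2+ Chil3+ barcodes 4 of 32 were higher (background 5.56%) and 9 lower (background 8.68%): the lysosomal proteases Ctsl (2.20-fold), Ctsd (1.80-fold) and Lgmn (1.63-fold) and the receptor chain Ifngr1 (1.55-fold) were higher, while Cd40, Irf1, Irf8 and Icam1 were among the lower. The costimulatory receptor Cd40 was at 85.7 CPM on day 3 and 20.5 CPM on day 14 in these barcodes. The summed level of 8 Arg1-high macrophage markers in the Ly6c2+ Chil3+ class was 1812, 1727 and 3876 CPM on the 3 days. Of its barcodes 31, 27 and 68 also passed the Arg1-high gate, and their part in the result was not tested. Ifngr1 was also higher on day 14 in cDC1-like (2.58-fold), migratory DC-like (1.69-fold) and pDC-like barcodes (2.58-fold). In cDC1-like barcodes 3 of 29 genes of the pathway were higher (background 4.3%) and 11 lower (background 9.02%) on day 7 than on day 3, with Ctsl, Ctsb, Lgmn and Irf1 named among the lower and Rfx5, Ifngr1 and March1, a ligase that removes class II from the surface, as the higher. The Pf4-high macrophage markers in the cDC1-like class were at 940, 53.1 and 749 CPM in sum, and their part in that result was not tested.

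Likeness of pattern was taken as Pearson's r over the 24 sums of class and day, on log2(CPM + 10). These sums share their library, their depth and in part their barcodes, so r is a description and has no p. Against the mean of the core genes, H2-Eb1, H2-Aa and Cd74 had r of 0.99 and H2-Ab1 0.97, Ciita 0.77, H2-DMb2 0.78, H2-DMa 0.73, H2-Ob 0.73, H2-Oa 0.66 and H2-DMb1 0.42. Each core gene is itself part of that mean, which raises its r above those of the other members by construction. Between single core genes r ran from 0.91 (H2-Aa with H2-Ab1) to 0.99 (H2-Aa with H2-Eb1). H2-DMb1 was the member least like the core genes. H2-DMb2 was most like H2-Ob and H2-Oa, each with r of 0.91, and had r of -0.01 with H2-DMb1. Among 3233 other genes with at least 100 CPM in 1 sum, those most like the core genes were Gdi2 (0.79), Dpp4 (0.77), Btla (0.77), Dock10 (0.74), Klrb1b (0.71), Plet1 (0.70), Lpcat1 (0.70) and Dnajc8 (0.70). Btla, an inhibitory receptor of lymphocytes and dendritic cells, was also most like H2-Ob (0.88), followed by Tut4 (0.85), Dennd4a (0.84), Gm11808 (0.83) and Trim7 (0.82). For Ciita they were Baz1a (0.85), Lmo1 (0.79), Phf11a (0.78), Rtn1 (0.78) and Plekha5 (0.77).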

How the data were processed

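Single-cell RNA-seq libraries (10x Genomics 3′ v3.1) of CD45+ tumour cells, 1 library for each of day 3, day 7 and day 14 with 3 mice pooled, were used as the UMI count matrices deposited by the authors. The submitters' processing notes name Cell Ranger 4.0.0 and the mm10 genome for these counts, and the sources used here do not name the gene annotation. The labels' protocols name both a cell sorter and magnetic beads for the CD45 selection. No other column of per-sample values was used.

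Barcodes with at least 1500 UMIs were gated on raw counts, with no doublet caller; a barcode could pass several gates. UMIs were summed by class and library and given as CPM over all genes, so deep barcodes weigh more. Exact intervals (95%) came from scipy 1.17.1. Differences between days were called at 1.5-fold with the conditional interval clear of 1 and at least 20 UMIs over both libraries, background shares leave out mitochondrial and ribosomal protein genes, and a count of 0 was read against a floor of 3 UMIs. The ratio calculation was tested on simulated data. The 10 members are all named, and of 32 pathway genes at most 4 in each direction in a class, by the interval bound nearest to no change. The values of 1 pathway gene are not reported here. The members, gates and lists were chosen with earlier results of these data known. Alternatives covered the UMI minimum (1000 and 3000), gates, shared, mixed or multiply gated barcodes, mitochondrial share, means over barcodes, gene scope, TMM scaling of class sums (edgeR 4.0.16), the top barcode, thinning to 1500 UMIs and a 2-fold rule. Promoter windows are RefSeq on GRCm38.p6, and gene positions are from GENCODE on mm10. Python 3.11.15, numpy 2.4.6, pandas 2.3.3, matplotlib 3.10.9, Biopython 1.88 and R 4.3.3 were used.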

Additional observations from a re-analysis of the deposited data

Results flagged for a closer look

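Some members differed in opposite directions in different classes between the same libraries; the log2 ratios below are those of the classes farthest apart among those past the size rule, and the difference between classes was not tested. Between day 7 and day 3, H2-DMb1 was at 1.07 in Pf4-high macrophages and -1.24 in migratory DC-like barcodes, a difference of 2.30. Ciita in the same comparison was at 0.83 in cDC1-like and -1.25 in migratory DC-like barcodes, a difference of 2.08. Between day 14 and day 7, H2-DMb1 was at 0.77 in migratory DC-like barcodes and -0.91 in Pf4-high macrophages, a difference of 1.68.

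Between day 14 and day 3, the core sum was higher in Pf4-high macrophages (0.73) and lower in B-like barcodes (-0.77), a difference of 1.5, and its genes parted the same classes or Pf4-high from migratory DC-like barcodes. The differences were 1.54 for H2-Aa, 1.36 for H2-Ab1, 1.41 for H2-Eb1 and 1.56 for Cd74. These differences depend on the setting. Without barcodes found in several libraries the core ratio of Pf4-high macrophages was 0.16, and none of the 4 core genes passed the rule there. Thinned to 1500 UMIs, the core ratio of B-like barcodes was -0.32. Without barcodes with at least 10 UMIs of Jchain, Cd74 alone of the core genes passed in the B-like class. H2-Oa was at 1.21 in Ly6c2+ Chil3+ barcodes and -1.62 in Arg1-high macrophages, a difference of 2.83 that rests on 20 to 35 UMIs a library. Ciita was at 0.61 in cDC1-like and -1.69 in B-like barcodes, a difference of 2.30. Each difference was taken between the highest and the lowest of the classes past the size rule.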

How the results depend on the processing

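Of the 62 calls of a member in a class between days, 8 passed the 1.5-fold rule under each of the other settings of barcodes, gates, scaling and thinning: H2-Aa, H2-Ab1, H2-Eb1 and Cd74 in Pf4-high macrophages (day 7 over day 3), H2-Aa and H2-Ab1 there (day 14 over day 7), Ciita in Ly6c2+ Chil3+ barcodes (day 14 over day 3) and H2-DMb2 in B-like barcodes (day 14 over day 7). The other 54 missed it under at least 1. Of the 8, 5 also passed at 2-fold, not Ciita nor the day 14 calls of H2-Aa and H2-Ab1, and the B-like class is itself left out without the small classes. Thinning to 1500 UMIs leaves fewer UMIs by construction; for the other settings the cause was not tested. The 10 higher calls of day 7 over day 3 became 4 when thinned. The 2 lower calls became 8 with doubled gates, 5 without barcodes of several gates, 4 without shared barcodes, 8 with means over barcodes, 4 with TMM scaling, 9 without the top barcode, 1 when thinned and 0 without the classes of under 20 barcodes (chosen after seeing the data, as was leaving out Jchain barcodes). For day 14 over day 7, the 1 higher call became 0 with a minimum of 3000 UMIs, when thinned, at 2-fold and without the small classes, 2 with doubled gates, without barcodes of several gates and with TMM, 4 with means, and 5 without shared barcodes or the top barcode; the 23 lower calls became 15 without shared barcodes, 7 when thinned, 11 at 2-fold and 13 without the small classes. For day 14 over day 3, the 7 higher calls became 4 without shared barcodes, 2 when thinned and 1 at 2-fold. The 19 lower calls became 10 without shared barcodes, 9 with means, 3 when thinned, 7 at 2-fold, 12 without Jchain barcodes and 6 without the small classes. TMM scaling shifted all log2 ratios of B-like barcodes by -0.28 (day 7 over day 3), 0.51 (day 14 over day 7) and 0.23 (day 14 over day 3), and those of the other classes by 0.15 or less in size. In log2 ratios, thinning reversed Ciita in cDC2-like barcodes (day 14 over day 7, -0.89 to 0.36), H2-DMb1 in migratory DC-like barcodes (day 7 over day 3, -1.24 to 0.62) and Ciita in Pf4-high macrophages (day 14 over day 3, -0.90 to 0.67). Without the top barcode, H2-DMb2 in the pDC-like class reversed to -0.59 (day 7 over day 3) and 1.64 (day 14 over day 7). H2-Oa in Ly6c2+ Chil3+ barcodes reversed to -1.22 without shared barcodes (day 7 over day 3). No paired analysis was possible because each day has 1 library.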

Other observations

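H2-Eb2, a class II beta chain gene outside the 10 members, was distributed otherwise than H2-Eb1 among the classes named here. It was at 72.8, 130 and 55.1 CPM in B-like barcodes and at 42.8, 33.7 and 65.8 CPM in migratory DC-like barcodes on day 3, day 7 and day 14. The day 7 values rest on few UMIs: the B-like class had 6 barcodes with 38554 UMIs of all genes, and the migratory DC-like class 19 with 326368. In cDC1-like barcodes, which held 5361, 6917 and 6220 CPM of H2-Eb1, H2-Eb2 was at 3.71, 1.66 and 6.01 CPM, and in Ly6c2+ Chil3+ barcodes at 1.40 CPM or less. B-like and migratory DC-like barcodes were also the classes where H2-DMb2 made up most of the H2-DM beta chain UMIs.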
